A study of Mus musculus with 4 samples.

Results

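Histamine is made from histidine by a single enzyme, is inactivated mainly by methylation in brain tissue, and acts through G protein-coupled receptors. The 6 mouse genes examined here are *Hdc*, which encodes histidine decarboxylase, *Hnmt*, which encodes histamine N-methyltransferase, and the receptor genes *Hrh1*, *Hrh2*, *Hrh3* and *Hrh4*. They were 6 of the 22095 loci in the expression table and were found by their symbols. *Hdc* was chosen by its fall in *rd7* retinas in these same libraries, and its difference is therefore described without a test. The other 5 genes were taken by function, to be set beside it.

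RNA-seq was performed on 2 *rd7* and 2 wild-type libraries of whole retina from mice aged 3 weeks. Each library pooled 8 retinas of 2 female and 2 male mice, so that the replicates are separate pools of animals. The *rd7* mice are Nr2e3 mutants, with the strain given as C57BL/6J, and the wild-type mice are C57BL/6J. The labels name no other allele and no treatment. *Nr2e3* encodes a transcription factor of rod development, and *rd7* retinas carry rods with cone features throughout the retina. The mutated gene itself reached 2490 and 1590 FPKM in *rd7* against 385 and 394 FPKM in wild-type retinas, and reads of a mutant transcript count towards these values. FPKM is the number of sequenced fragments per kilobase of transcript, scaled to the mapped fragments of the library. Retinal genes were abundant in all libraries, with *Gnat1*, the rod transducin alpha subunit, between 2710 and 5210 FPKM and *Glul*, a Müller cell enzyme, between 904 and 1010 FPKM. From low values of genes with 1 transcript, the FPKM were estimated to be scaled to between 3.49e+07 and 3.56e+07 reads per library, which need not be all mapped reads, and read numbers given for single genes rest on this estimate.

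As background, the histamine of the mammalian retina is thought to come largely from axons of hypothalamic neurons, whose cell bodies lie outside the eye. The H1 receptor couples to phospholipase C and calcium release, the H2 receptor raises cyclic AMP, and the H3 and H4 receptors couple to inhibitory G proteins. The H3 receptor is mainly neuronal, and the H4 receptor is known mostly from blood cells.

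*Hdc* was expressed at a low level in wild-type retinas and was nearly undetected in *rd7* retinas. The gene (chr2:126419404-126444401 of mm9, minus strand) has 12 exons in its main annotated transcript of 2392 bases, and overlaps no other listed locus. Wild-type retinas had 1.67 and 2.27 FPKM, and *rd7* retinas 0.0244 and 0.049 FPKM. Both *rd7* values lay far below both wild-type values, and the lowest wild-type value was 34.1 times the highest *rd7* value. The means were 1.97 ± 0.426 (SD, n = 2) in wild-type and 0.0367 ± 0.0174 (SD, n = 2) in *rd7* retinas, a 53.7-fold difference. The estimated reads behind these values were 141.5 and 193.5 in wild-type and 2.1 and 4.1 in *rd7* retinas. The level in *rd7* replicate 1 was thus under the worth of 3 reads, 0.0354 FPKM for this transcript, and the level in *rd7* replicate 2 was just above it. On the log2(FPKM + 0.1) scale, which understates the change of low genes, the difference was -3.91. With a pseudocount of 1 it was -1.51 and without any pseudocount -5.75, so the size on a log scale is set by that choice.

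The 250 bases before the annotated start of *Hdc* are shown because the transcript that begins there is nearly absent from *rd7* retinas. The sequence comes from the RefSeq promoter table of build GRCm38.p6 and was found once, without a mismatch, in mm9, on the minus strand of chr2:126444415-126444664. It is written 5′ to 3′ up to the base before the start, with the only motif match in capitals.
*Hdc* promoter: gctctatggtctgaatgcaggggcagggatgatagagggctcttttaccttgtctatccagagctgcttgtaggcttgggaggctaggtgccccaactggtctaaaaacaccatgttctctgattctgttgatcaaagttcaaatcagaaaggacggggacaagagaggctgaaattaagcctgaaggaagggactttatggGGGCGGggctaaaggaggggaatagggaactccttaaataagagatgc
The capitals mark a GC box, GGGCGG, which begins 48 bases before the start. On both strands the window was also searched for the NR2E3 motif AAGTCA, the CRX site TAATCC, the NRL motif TGCTGA and the nuclear receptor motif AGGTCA. CRX and NRL are photoreceptor transcription factors that act with NR2E3. None of these 4 motifs was found in the window. Among 32851 promoter windows of the same length, GGGCGG was present in 32.7%, AAGTCA in 13.1%, TAATCC in 6.25%, TGCTGA in 16.1% and AGGTCA in 14.0%.

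**Figure D1:**
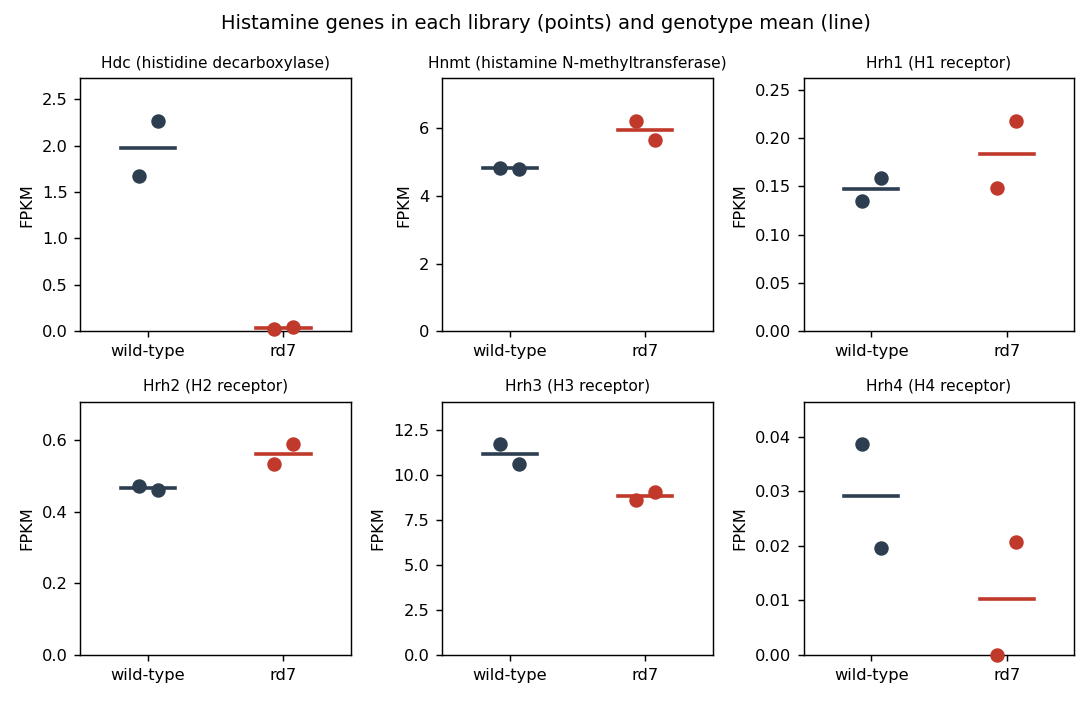
FPKM of the 6 histamine genes in each library, with 1 panel per gene on its own linear axis from 0. Points are libraries, 2 per genotype, and lines are genotype means. *Hdc* is the gene whose wild-type mean of 1.97 meets an *rd7* mean near 0, while *Hnmt* and *Hrh2* lie somewhat higher and *Hrh3* lower in *rd7*.

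The genes beside *Hdc* on the chromosome showed no fall of that size. *Slc27a2*, a fatty acid transport gene 5.42 kb away on the side of lower coordinates, had an FPKM of 0.348 and 0.186 in *rd7* and 0.221 and 0.224 in wild-type retinas, and was under the mean FPKM of 1 required for a test. *Gabpb1*, 10.2 kb away on the other side and encoding a subunit of a GA-binding transcription factor, had 10.4 and 10.9 FPKM in *rd7* and 11.5 and 11.4 in wild-type retinas. Its log2 difference of -0.11 (standard error 0.06) had an adjusted p of 0.178 in limma. *Usp8*, which encodes a deubiquitinase and lies 88.7 kb away, was higher in *rd7* by 0.21 (standard error 0.06, adjusted p = 0.0317 in limma). Of the other loci next in order, *Dtwd1* was not called (0.19, adjusted p = 0.321 in limma), and *Atp8b4* and *Usp50* were under the filter with at most 0.108 FPKM in any library. Within 2 Mb on either side, 29 other genes were tested, of which 10 were higher (34.5%) and 1 was lower (3.45%), against 37.6% and 8.80% of all genes tested. Their log2 differences ran from -0.37 to 0.45. The lower gene was *Stard7*, a lipid transfer gene named after its value was seen.

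**Figure D2:**
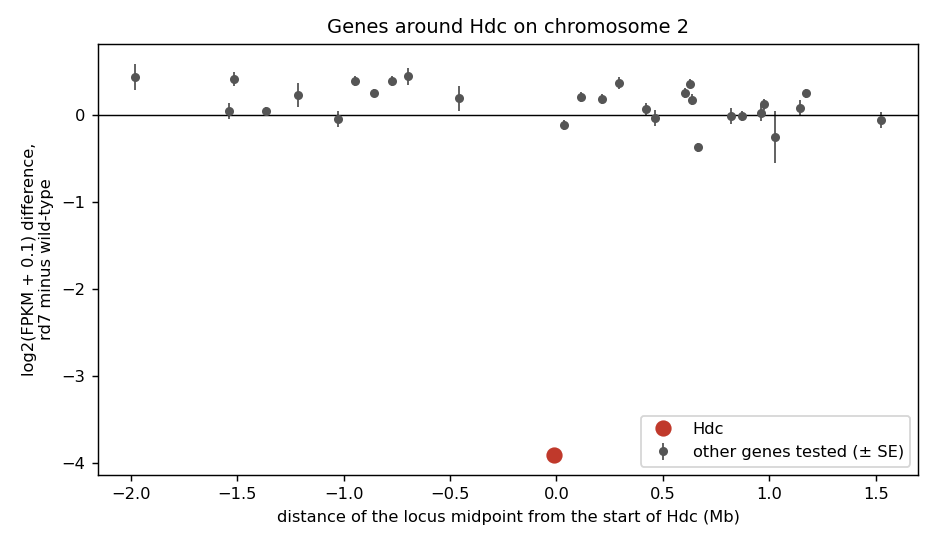
Log2(FPKM + 0.1) difference, *rd7* minus wild-type, of the genes tested within 2 Mb of *Hdc*, by the distance of the locus midpoint from the start of *Hdc* in Mb. Grey points with bars are the other 29 genes ± standard error, which lie between -0.37 and 0.45, and the red point is *Hdc* at -3.91.

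*Hnmt* was detected in all libraries at a moderate level and was slightly higher in *rd7*. The enzyme inactivates histamine by methylating its ring. The gene is at chr2:23858432-23904899 of mm9, on the minus strand. It had 6.23 and 5.66 FPKM in *rd7* retinas against 4.82 and 4.81 FPKM in wild-type retinas, and the groups did not overlap. Between 283 and 365 estimated reads lay behind each value. The mean was 1.23 times that of wild-type retinas, a log2 difference of 0.30 (standard error 0.08, adjusted p = 0.0253 in limma). Across all genes tested, 37.6% were called higher in *rd7* and both *rd7* values were above both wild-type values in 57.1%, so that a rise of this kind is frequent in these libraries. The median log2 difference of all genes tested was 0.15. The call depended on scaling. With median-ratio scaling, which brings the median of all genes to 0.00, the difference was 0.15 (adjusted p = 0.173 in limma), with quantile normalization 0.12 (adjusted p = 0.254), and with an adjustment for exon length and GC share -0.02 (adjusted p = 0.858). The exonic GC content of *Hnmt* was 37.9%. Leaving out wild-type replicate 1 or wild-type replicate 2 also ended the call (adjusted p = 0.168 and 0.154 in limma), while the difference stayed at 0.30 in both cases. Of the loci next to it, *Spopl*, 431 kb away and encoding a ubiquitin ligase adaptor, had 3.19 and 3.16 FPKM in *rd7* and 1.55 and 1.62 FPKM in wild-type retinas (0.96, adjusted p = 0.00191 in limma). *Il1f9* was not called (0.16, adjusted p = 0.441 in limma), *Nxph2* and *4931423N10Rik* were under the filter, and *Tbpl2* and *Il1f8* were listed at 0.

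In wild-type retinas the *Hnmt* level was 2.89 times the *Hdc* level in replicate 1 and 2.12 times in replicate 2. In *rd7* retinas this ratio was 255 and 116. The ratio is between FPKM, which is per transcript length, and in *rd7* retinas its denominator rests on 2.1 and 4.1 estimated reads.

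Of the 4 receptor genes, *Hrh3* was by far the most abundant and was lower in *rd7* retinas. *Hrh3* (chr2:179834178-179838927 of mm9, minus strand) had 11.7 and 10.6 FPKM in wild-type retinas and 8.6 and 9.07 FPKM in *rd7* retinas. Both *rd7* values were below both wild-type values. The wild-type mean was 1.26 times the *rd7* mean, a log2 difference of -0.33 (standard error 0.07, adjusted p = 0.0152 in limma). Among all genes tested, 8.80% were called lower and 19.5% had both *rd7* values below both wild-type values. The fall was -0.48 with median-ratio scaling, -0.49 with quantile normalization and -0.32 with the adjustment for exon length and GC share, and was called in each. Lower calls were more frequent in these settings, at 19.6%, 19.0% and 15.1% of all genes tested. Without wild-type replicate 1 the difference was -0.26 (adjusted p = 0.149 in limma) and without wild-type replicate 2 it was -0.40 (adjusted p = 0.0531), so that both calls were lost, and without a filter on low FPKM the adjusted p was 0.0999.

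The H2 receptor gene *Hrh2* was expressed at a low level (chr13:54287498-54317801 of mm9). Its level was 0.533 and 0.589 in *rd7* and 0.471 and 0.462 FPKM in wild-type retinas, from 45.9 to 57.3 estimated reads per library. Both *rd7* values were above both wild-type values, as held for 57.1% of all genes tested. The mean was 1.2 times that of wild-type retinas, a log2 difference of 0.22 that was 0.091 with median-ratio scaling. *Hrh2* was under the filter and entered no test. When all genes were tested without a filter, its adjusted p was 0.257 in limma.

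*Hrh1* (chr6:114347930-114433290 of mm9), the H1 receptor gene, was lower still. Its level was 0.148 and 0.218 FPKM in *rd7* and 0.135 and 0.159 FPKM in wild-type retinas, and the groups overlapped. These values correspond to between 18.1 and 28.8 estimated reads. Without a filter, the adjusted p was 0.568 in limma.

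*Hrh4* (chr18:13165499-13181391 of mm9), the H4 receptor gene, was not measurable at this depth. It was listed at 0 and 0.0206 FPKM in *rd7* and at 0.0386 and 0.0196 FPKM in wild-type retinas. Each value was under the worth of 3 reads, between 0.0548 and 0.0559 FPKM, and no difference is given.

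The order of the receptors was therefore the same in each of the 4 libraries, from *Hrh3* through *Hrh2* and *Hrh1* to *Hrh4*. *Hrh3* was between 15.4 and 24.8 times as high as *Hrh2*, and *Hrh2* between 2.69 and 3.6 times as high as *Hrh1*. The values of receptors next to each other in this order did not overlap. Placed among all 6 genes in wild-type retinas, *Hdc* lay between *Hnmt* and *Hrh2*. In *rd7* retinas it fell below *Hrh1* in both libraries and was listed above *Hrh4* alone. That last order rests on 2.1 and 4.1 estimated reads of *Hdc* against 0 and 1.1 of *Hrh4* and is not established. Among all loci with a successful estimate, the mean *Hdc* level stood at percentile 48.4 in wild-type and 23.8 in *rd7* retinas. Of the 6 genes, 3 passed the filter of a mean FPKM of 1. *Hdc*, with a mean of 1.00 over the libraries, passed only through its wild-type values.

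**Figure D3:**
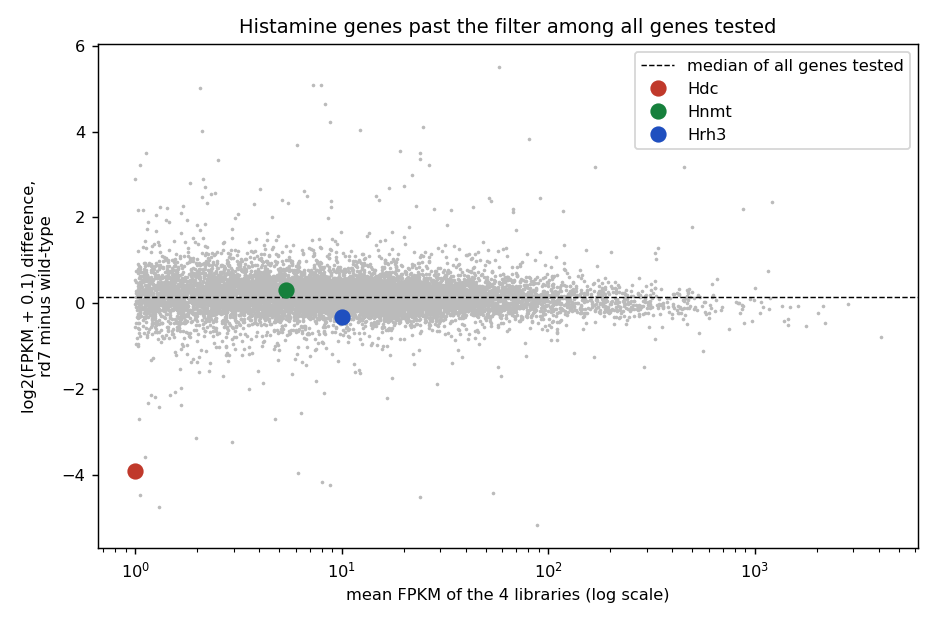
Log2(FPKM + 0.1) difference, *rd7* minus wild-type, against the mean FPKM of the 4 libraries on a log axis for the 12655 genes tested (grey). *Hdc* (red) lies at the low end of expression at -3.91, *Hnmt* (green) at 0.30 and *Hrh3* (blue) at -0.33, on either side of the dashed median of 0.15.

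Genes that supply, use, carry or break down histidine or histamine were then examined, and several of them also handle other substrates. Of 29 such genes, all were listed and 16 were tested, with 8 higher (against 37.6% of all genes tested), 0 lower and 8 not called. Their median log2 difference was 0.24 against 0.15 for all genes tested. Without wild-type replicate 1 only 3 were higher, and without wild-type replicate 2 only 4. With median-ratio scaling 4 were higher, with quantile normalization 3 and with the adjustment for exon length and GC share 4. In the same order, 19.7%, 18.6% and 12.4% of all genes tested were then higher. *Aldh3a2*, an aldehyde dehydrogenase of broad substrate range, rose most, with 28.2 and 23.4 FPKM in *rd7* and 11.4 and 11.8 in wild-type retinas (1.14, standard error 0.09, adjusted p = 0.00106 in limma). *Hars2*, the mitochondrial histidyl-tRNA synthetase, rose from 10.2 and 11.3 FPKM to 23.3 and 20.2 (log2 difference 1.00). The cytosolic synthetase gene *Hars* rose by 0.26 on the log2 scale. *Slc3a2*, the partner chain of a large amino acid transporter, rose by 0.43 and *Slc15a4*, a lysosomal carrier of histidine and peptides, by 0.39. *Aldh3a2*, *Hars2* and *Slc3a2* remained called under median-ratio scaling, quantile normalization and the adjustment for exon length and GC share. *Hars* was called with none of these, at 0.10, 0.12 and 0.13. *Slc15a4* was not called with quantile normalization (0.21, adjusted p = 0.0576 in limma).

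The vesicular monoamine carrier *Slc18a2*, which loads histamine as well as dopamine into vesicles, had 2.75 and 2.88 FPKM in *rd7* and 2.05 and 2.06 in wild-type retinas. Its log2 difference of 0.43 (standard error 0.10, adjusted p = 0.0166 in limma) was 0.29 with median-ratio scaling (adjusted p = 0.065), 0.23 with quantile normalization (adjusted p = 0.112) and 0.11 with the adjustment for exon length and GC share (adjusted p = 0.426), and was called with none of these. *Maoa* and *Maob* encode monoamine oxidases, the kind of enzyme that acts after methylation. *Maoa* was between 7.87 and 8.95 FPKM and was not called (0.09, adjusted p = 0.347 in limma). With the adjustment for exon length and GC share it was called lower (-0.27, adjusted p = 0.0316 in limma). *Maob* was under the filter, between 0.338 and 0.559 FPKM. The other route of breakdown, diamine oxidase (*Aoc1*, listed as *Abp1*), reached at most 0.0102 FPKM. *Slc22a2* and *Slc22a3*, organic cation transporters, reached at most 0.0144 FPKM, while *Slc29a4*, another plasma membrane monoamine carrier, lay between 7.21 and 8.38 FPKM and was not called (0.10, adjusted p = 0.387 in limma). Of the genes that degrade histidine itself, *Hal* reached at most 0.021 FPKM, and *Uroc1* and *Amdhd1* were listed at 0 in all libraries.

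Genes through which histamine receptors act were expressed in both genotypes. Of 26 such genes, 25 were tested, with 14 higher (56.0%), 4 lower (16.0%) and 7 not called, and the median log2 difference was 0.24. The shares in all genes tested were 37.6% and 8.80%. Without wild-type replicate 1, 3 were higher and 1 lower, and without wild-type replicate 2, 6 and 1. The 14 higher genes were 7 with median-ratio scaling, 7 with quantile normalization and 6 with the adjustment for exon length and GC share, with 4 lower in each. In the same order, 19.7%, 18.6% and 12.4% of all genes tested were then higher. The shares lower were 19.6%, 19.0% and 15.1%. On the H1 side, *Itpr3*, an inositol trisphosphate receptor, had 2.34 and 1.63 FPKM in *rd7* and 0.582 and 0.503 in wild-type retinas (1.68, standard error 0.23, adjusted p = 0.00338 in limma). It passed the filter only through its *rd7* values, and without the filter it was not called (adjusted p = 0.0606). *Plcb4*, a phospholipase C gene, rose by 0.60, but not with the adjustment for exon length and GC share (0.28, adjusted p = 0.0775 in limma). Among the adenylyl cyclases that the H2 receptor stimulates and the H3 and H4 receptors restrain, *Adcy2* rose from 18.3 and 19.2 FPKM to 34.4 and 32.2 (0.83), whereas *Adcy6* fell from 47.1 and 46.1 FPKM to 31.1 and 25.8 (-0.71) and *Adcy1* from 37.1 and 37.1 FPKM to 22.9 and 28.3 (-0.54). Of the inhibitory G protein genes, *Gnai3* rose most, by 0.72. The other lower genes were *Arrb2*, an arrestin gene, at -0.27, and *Gnas*, the stimulatory G protein gene, at -0.17. The directions of *Itpr3*, *Adcy2*, *Gnai3*, *Adcy6*, *Adcy1*, *Arrb2* and *Gnas* and their calls were the same with median-ratio scaling, quantile normalization and the adjustment for exon length and GC share. These genes serve many receptors, and none of them is specific to histamine.

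**Figure D4:**
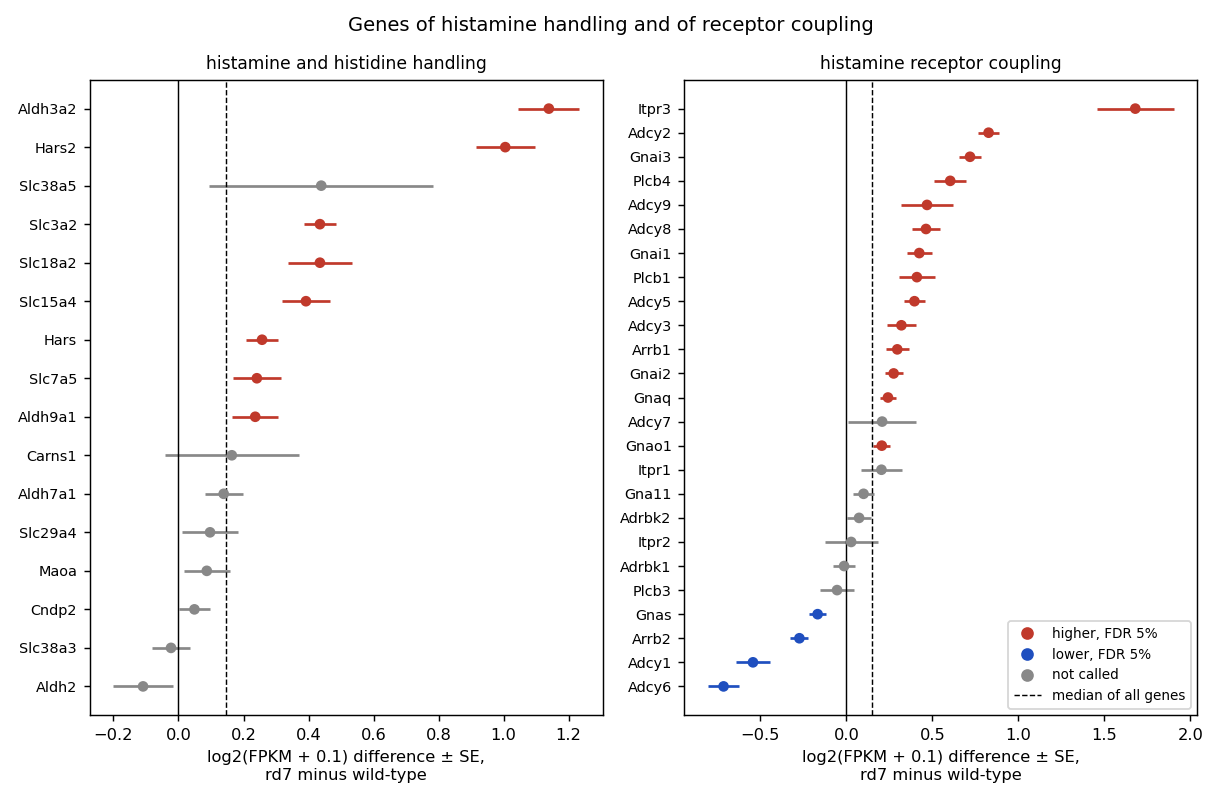
Log2(FPKM + 0.1) difference ± standard error, *rd7* minus wild-type, for the 16 tested genes of histamine and histidine handling (left) and the 25 tested genes of receptor coupling (right). Red points were higher and blue points lower at an FDR of 5%, grey points were not called, and the dashed line is the median of all genes tested, 0.15. Left, 8 genes are red and none blue, and right, 14 are red and 4 blue.

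No tested enzyme related to *Hdc* or *Hnmt* was called lower. Of 11 genes, 6 were tested, with 3 higher, 0 lower and 3 not called, and the median log2 difference was 0.16. Of all genes tested, 37.6% were higher and 8.80% lower, with a median of 0.15, which the relatives nearly equal. Among decarboxylases of the same family, *Gad1* and *Gad2*, which make GABA, were higher by 0.36 (adjusted p = 0.00926 in limma) and 0.38 (adjusted p = 0.0117), and *Csad*, which acts in taurine synthesis, was not called (0.07, adjusted p = 0.498). *Ddc*, the closest relative in function as the decarboxylase of dopamine and serotonin synthesis, was under the filter at 0.356 and 0.315 FPKM in *rd7* and 0.211 and 0.293 FPKM in wild-type retinas. *Gadl1* was under it as well, between 0.150 and 0.292 FPKM. Of the methyltransferases of small molecules, *Gamt* (-0.06, adjusted p = 0.579 in limma) and *Gnmt* (-0.49, adjusted p = 0.142) were not called. *Inmt*, *Pnmt* and *Nnmt* reached at most 0.282 FPKM. With median-ratio scaling, neither *Gad1* nor *Gad2* was called, at 0.21 and 0.22. With quantile normalization *Gad1* was called (0.26, adjusted p = 0.0325 in limma) and *Gad2* was not (0.22), and with the adjustment for exon length and GC share neither was, at 0.08 and 0.05. Without wild-type replicate 1, 0 of the relatives were called higher, and without wild-type replicate 2, 1.

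*Hdc* is known best from mast cells and basophils, and marker genes of these and other cells were measured beside it. Fewer cells of a type and less RNA per cell cannot be told apart in whole retinas. Of the 16 mast cell and basophil markers, 9 were listed at 0 in all 4 libraries, among them the proteases *Cma1*, *Mcpt1*, *Mcpt2*, *Mcpt4*, *Mcpt8* and *Tpsab1*, the IgE receptor genes *Fcer1a* and *Ms4a2*, and *Mrgprb2*. The carboxypeptidase gene *Cpa3* and the tryptase gene *Tpsb2* were listed at 0 in both wild-type libraries and at up to 0.0164 and 0.0278 FPKM in *rd7* retinas. The summed level of the list was 4.09 and 3.89 FPKM in wild-type and 3.37 and 3.26 FPKM in *rd7* retinas, most of it from *Tpsg1* and *Kit*. *Tpsg1*, a membrane-anchored tryptase, had 2.31 and 2.16 FPKM in wild-type and 1.33 and 1.14 FPKM in *rd7* retinas (-0.81, adjusted p = 0.00647 in limma), and it was not called without wild-type replicate 1. Its locus overlaps that of *Cacna1h*, a calcium channel gene at 18.6 to 22.2 FPKM, and reads could be split between both. *Kit* was not called (0.34, adjusted p = 0.088 in limma). The part of mast cells and basophils in the *Hdc* difference was not tested.

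Some blood genes were also lower in *rd7* retinas. Of 12 estimated loci for 10 symbols, 5 were tested, with 3 lower, 0 higher and 2 not called, against 8.80% lower and 37.6% higher of all genes tested. Among the 3, *Alas2*, a gene of haem synthesis, passed the filter only through its wild-type values. The summed level of all 12 loci was 271 and 318 FPKM in wild-type and 76.9 and 161 FPKM in *rd7* retinas. The beta-globin gene *Hbb-b1* had 196 and 263 FPKM against 66.8 and 137 FPKM. Globin genes have near-identical copies, and *Hbb-b2* was at 35.3 FPKM in wild-type replicate 1 and near 0 in the other libraries, so their values are uncertain. None of the 12 loci was at 0 in all libraries, while the platelet genes *Pf4* and *Ppbp* were at 0 in 3 of 4. The summed level of the blood list fell less far than *Hdc*, and its part in the *Hdc* difference was not tested. The lens list summed to 54.4 and 138 FPKM in wild-type and 35.4 and 69.3 FPKM in *rd7* retinas, with overlapping groups and 0 of 10 tested genes called. The summed level of the pigment epithelium list went the other way. It was 207 and 191 FPKM in wild-type and 274 and 240 FPKM in *rd7* retinas. Most of it came from *Rlbp1*, which was not called (0.15, adjusted p = 0.126 in limma). *Rlbp1* encodes a retinaldehyde-binding protein that Müller cells also express, so this sum is not particular to pigment epithelium. All 10 tested differences were above 0, with 6 genes called higher, against 37.6% of all genes tested. Among the 6, *Tyrp1* and *Slc6a13* passed the filter only through their *rd7* values, with wild-type means of 0.705 and 0.964 FPKM. Under the filter, the *Best1* values were lower in *rd7* retinas and the *Lrat* values higher. Macrophage and microglia markers summed to 14.5 and 15.0 FPKM in wild-type and 18.1 and 22.1 FPKM in *rd7* retinas, with 2 of 6 tested genes higher (33.3%, against 37.6% of all genes tested). These were *Csf1r* and *P2ry12*, of which the latter passed the filter only through its *rd7* values. The part of these cells in the *Hdc*, *Hnmt* and *Hrh3* differences was not tested.

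**Figure D5:**
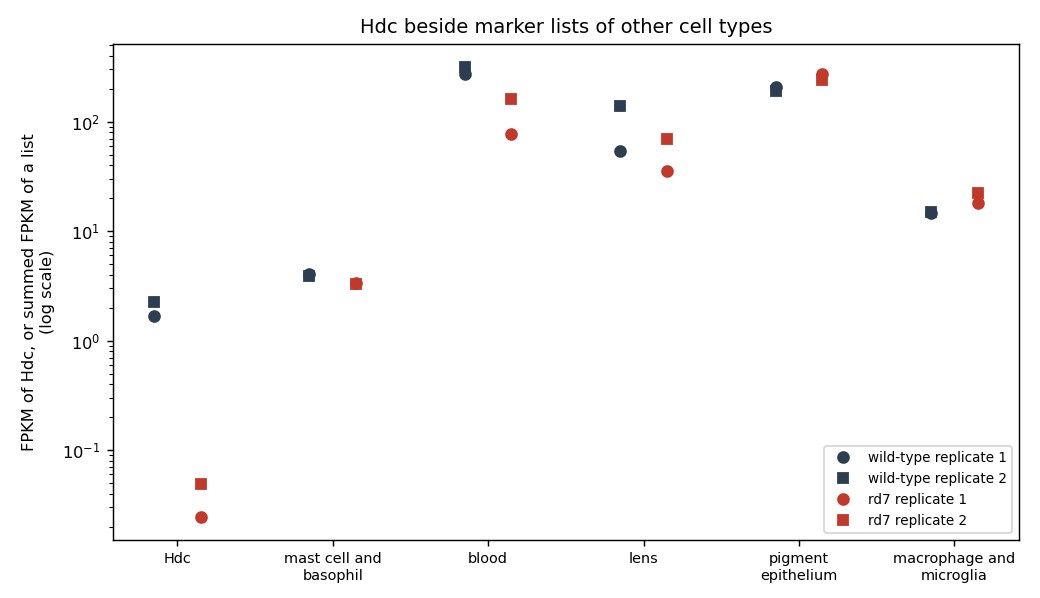
FPKM of *Hdc* and summed FPKM of marker lists of 5 other kinds of cells in each library, on a log axis. Dark blue points are wild-type and red points *rd7* libraries, with circles for replicate 1 and squares for replicate 2. *Hdc* differs between the genotypes by at least 34.1 times in each pair of libraries, the blood list runs from 76.9 to 318 FPKM and the mast cell and basophil list from 3.26 to 4.09 FPKM.

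The genes most like each histamine gene in their values over the 4 libraries were found by the distance between log2(FPKM + 0.1) values after each gene's mean was taken off. Nearest to *Hdc* were *Zan*, a sperm zona-binding gene (distance 0.441), *Snord38a*, a small nucleolar RNA (0.671), the water channel gene *Aqp1* (0.746), *Sh2d1a*, an adaptor of lymphocyte signalling (0.845), and *Zfp91-Cntf*, a readthrough locus (0.935). The median distance over 12654 genes was 4.08. *Zan* had 2.13 FPKM in both wild-type libraries and 0.0707 and 0.102 FPKM in the *rd7* libraries, and *Sh2d1a* had 5.34 and 5.4 against 0.33 and 0.68 FPKM. *Zan* was thus low in wild-type and near 0 in *rd7* retinas, whereas *Sh2d1a* kept a low level in *rd7* retinas above that of *Hdc*. The distance grows with the size of a difference, so that these genes also share a large fall. Each of these genes except *Aqp1* passed the filter only through its wild-type values, as did *Hdc*. *Snord38a* is a locus little longer than the 50 bp reads, and its FPKM are uncertain.

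Nearest to *Hnmt* were *Kctd5*, *Bok*, *Cnrip1*, *Xpo1* and *Tacc2*, at distances from 0.00643 to 0.0151 against a median of 0.289. Nearest to *Hrh3* were *Bola3*, *Cradd*, *Gm12942*, *Gm13375* and *Plekhj1*, at 0.0162 to 0.0398 against a median of 0.527. *Bola3*, a gene of mitochondrial iron-sulphur proteins, had 37.2 and 33.6 FPKM in wild-type and 27.2 and 29.2 FPKM in *rd7* retinas. With small differences and 4 libraries, many genes lie this close, and the likeness is a description of these values only.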

How the data were processed

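FPKM per gene were made by the authors with Cufflinks 1.3.0 after TopHat 1.4.1 had placed the 50 bp reads, 1 per fragment, on mm9; the annotation and strand setting are not given in the sources used here. The deposited FPKM were used with their status, and 262 loci with a status other than OK were left out. The authors' Cuffdiff table holds their own comparison and was not used. FPKM are not counts, so log2(FPKM + 0.1) was compared between 2 *rd7* and 2 wild-type libraries for genes whose mean reached 1 FPKM. The test was two-sided, from limma 3.58.1 (R 4.3.3; trended eBayes), with p-values adjusted by Benjamini-Hochberg and called at 5% FDR. An exact permutation test of 1 gene cannot go under p = 0.333 here and was not used. Simulated data were used to test the fit.

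Exonic length and GC content were taken from GENCODE vM1 on the same build and were known for 96.9% of the genes tested. The worth of 1 read was the median of FPKM times kb of exon between 0.02 and 0.036, in genes with 1 transcript and over 800 bases of exon. Read numbers depend on that window and on annotated lengths and are approximate; floors cover counting error only. Promoter motifs were searched in Python 3.11.15.

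The genes and lists were chosen with earlier results of these data known. Named are the 6 histamine genes, *Nr2e3*, up to 6 called genes per list, the enzyme relatives, markers at 0, the 3 loci on either side of *Hdc* and of *Hnmt* on the chromosome, and the 5 genes nearest in pattern to each gene tested. *Stard7*, *Cacna1h*, *Arrb2*, *Gnas* and the called macrophage genes were added after values were seen, as were uncalled or untested members of lists given for their level. Some list members are counted but not reported here by name. Alternatives were other pseudocounts, filters, scalings, splines of exon length and GC share, untrended eBayes, the replicate number as a block, 1% FDR and leaving out each library.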

Additional observations from a re-analysis of the deposited data

How the results depend on the processing

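*Hdc* was lower in *rd7* under each setting tried, with log2 differences of -1.51 at a pseudocount of 1, -5.44 at 0.01, -3.39 with quantile normalization and -5.75 from mean FPKM without a pseudocount, and between -4.12 and -3.70 with a library left out. *Hnmt* was 0.15 and not called with median-ratio scaling, 0.12 with quantile normalization, -0.02 with the adjustment for exon length and GC share, and 0.30 but not called without a filter or at an FDR of 1%; its range was 0.23 to 0.36 with a library left out. *Hrh3* was -0.33 and not called without a filter or at an FDR of 1%, and ran from -0.40 to -0.26 with a library left out. *Hrh2* was 0.089 at a pseudocount of 1 and 0.091 with median-ratio scaling. *Hrh1* and *Hrh2*, under the filter, had no value with quantile normalization or the length and GC adjustment. The cause of these changes was not tested. With 1 library left out, the lone library of a genotype is assumed to vary like the others.

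Genes higher in *rd7*, 4755 in all, numbered 2492 with median-ratio scaling, 2350 with quantile normalization, 1520 with the adjustment for exon length and GC share, 2249 without a filter and 2582 at an FDR of 1%; the 1114 lower genes became 2479, 2404, 1849, 455 and 446. The share of calls that were higher, 81.0%, was 50.1%, 49.4% and 45.1% with the first 3 of these. With a library left out, 1293 to 5484 were higher and 224 to 1601 lower, the lowest counts without wild-type replicate 1 (without wild-type replicate 2, 2124 and 338).

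The 8 higher genes of histidine and histamine handling became 4, 3, 4, 5 and 5 under the same 5 settings, with 1 lower under the length and GC adjustment, and 3 to 10 higher and 0 to 1 lower with a library left out. The 14 higher genes of receptor coupling became 7, 7, 6, 5 and 8, with 9 when the filter was set at 5 FPKM; its 4 lower genes became 1 without a filter, and a library left out gave 3 to 15 higher and 1 to 4 lower. The 3 higher enzyme relatives became 0, 1, 0, 0 and 1, and 0 to 3 higher and 0 to 1 lower with a library left out. The 1 lower mast cell marker became 0 without a filter and with the filter at 5 FPKM. Without a filter, *Cpa3* was called higher (adjusted p = 0.0106 in limma), at only 0.0156 and 0.0164 FPKM in *rd7* and 0 in wild-type retinas. Without a trend, *Kit* was called higher.

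The libraries numbered 1 did not deviate together (r = -0.0265 across 12655 genes). The replicate block left 4508 higher and 1091 lower, *Hnmt* and *Hrh3* stayed called (adjusted p = 0.0326 and 0.0214 in limma), and 1 enzyme relative, *Gnmt*, was called lower, while *Gnas* was no longer called (adjusted p = 0.0716) and handling genes went from 8 to 7 higher. Depth limits *Hrh4*, with at most 2.1 estimated reads per library, the *rd7* values of *Hdc*, with 2.1 and 4.1, and *Hrh1*, with at most 28.8.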
